A study of Caenorhabditis elegans with 6 samples.

Results

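The mitochondrial ribosomal protein genes (MRP genes) of C. elegans were examined in RNA from dissected germlines. Their symbols start with mrpl- for the large and mrps- for the small subunit of the mitochondrial ribosome, and they were found by that prefix among protein-coding genes and matched to the count files by sequence name. Of 70 such genes, 69 had a row in the files, which hold 45461 genes in all: 40 of the large and 29 of the small subunit. A total of 67 passed edgeR's filter on low counts, among 8117 genes that did. The other 2, mrpl-12 and mrps-16, had 0 to 3 reads in every library and were not tested, and mrpl-42 was not analysed here.

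There were 3 groups of 2 libraries, all from distal gonad arms of day 1 adult hermaphrodites grown at 24°, cut at the bend of the gonad. Control germlines came from the strain HBR1280, which carries oxTi75, a GFP::H2B histone reporter driven by eft-3p, and they held chromosomes of both parents. “Red-head” germlines came from F1 worms of a cross of HBR1281 hermaphrodites, which carry the TdTomato::H2B reporter oxTi411 and a yfp::gpr-1 transgene, ddIs32, with HBR1280 males. In these mosaic worms the maternal and paternal chromosomes go to different cells of the early embryo, so that the germline holds sperm chromosomes only. Offspring germlines were those of the next generation, F2 worms born to “red-head” mothers. All 3 kinds of germline were described as genetically identical to HBR1280. Each library was a pool of gonad arms, and the 2 libraries of a group were described as biological replicates. The study asked whether chromosomes inherited through sperm alone give a germline with normal gene expression.

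Mitochondria keep a ribosome of their own. It descends from that of bacteria and translates the few mRNAs encoded by mitochondrial DNA, all of them for subunits of the respiratory chain and ATP synthase, while every one of its proteins is encoded in the nucleus, made in the cytosol and imported. Part of these proteins have bacterial counterparts and the rest were added in the mitochondrial lineage. In worms the family is best known through mrps-5, whose knockdown by RNAi extends lifespan and activates the mitochondrial unfolded protein response. The C. elegans germline multiplies its mitochondrial DNA strongly and supplies the oocyte with mitochondria.

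The reads on genes numbered 7469633 and 4980329 for control, 11310273 and 2721055 for “red-head” and 7150847 and 3673141 for offspring germlines. The MRP genes took 9234 to 39357 reads per library, or 0.339% to 0.412% of the reads on genes. Of the 14 germline markers checked, all 14 passed the filter, with 8502 to 11257 CPM per library in sum (CPM being the usual read count scaled to library size, here with edgeR's TMM factors). The 13 intestine markers summed to 512 and 355 CPM in the control pair, 3234 and 6200 CPM in the “red-head” pair and 1349 and 207 CPM in the offspring pair. Among them elt-2, the regulator that defines the intestine, had 0 reads in both control libraries, 5 and 3 reads in the “red-head” pair and 2 and 0 reads in the offspring pair. The 10 spermatogenesis markers summed to 6.98 and 6.32 CPM in the “red-head” pair and to between 8.34 and 18.96 CPM in the other 4 libraries. Of these 10 genes, 4 passed the filter, and their sums rest on few reads. Oogenesis markers, of which all 10 passed, had their highest sums in the “red-head” pair, at 13049 and 13885 CPM. The other 4 libraries lay between 10704 and 12279 CPM. Taken singly, 5 oogenesis markers were fitted higher and 5 lower in “red-head” than in control germlines. Intestine markers and the oogenesis sum were thus higher in “red-head” libraries and the spermatogenesis sum lower. The part of these differences in the results below was not tested. In bulk tissue, fewer cells of a type and less RNA per cell cannot be told apart. The library names carry tags: control 1 and offspring 1 share one, “red-head” 2 and offspring 2 share another. Control and “red-head” germlines never share a tag, so tag and group cannot be told apart in that comparison.

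The MRP genes were expressed in a narrow band. Per length, as CPM per kilobase of exon (RPKM), the 67 tested genes had a median level of 57, against 34.6 for all 7596 tested protein-coding genes and 2250 for the 79 tested genes of cytosolic ribosomal proteins. The level at the 90th percentile was 2.28 times that at the 10th percentile for MRP genes, 2.76 times for cytosolic ribosomal protein genes and 84.8 times for all coding genes. In all, 61 of the 67 MRP genes, or 91%, lay within 2-fold of their median level, where 38.2% of all coding genes lay within 2-fold of theirs. The median level was 57.7 RPKM for the large subunit (n = 39) and 52.9 RPKM for the small subunit (n = 28). Genes classed as having a bacterial counterpart and those classed as added in mitochondria did not stand apart, with medians of 57 RPKM (n = 39) and 57.5 RPKM (n = 24). The 4 genes named after mrps-18 were put in neither class and had a median of 51.2 RPKM. The class of mrpl-55, counted with the bacterial counterparts, is uncertain.

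**Figure D1:**
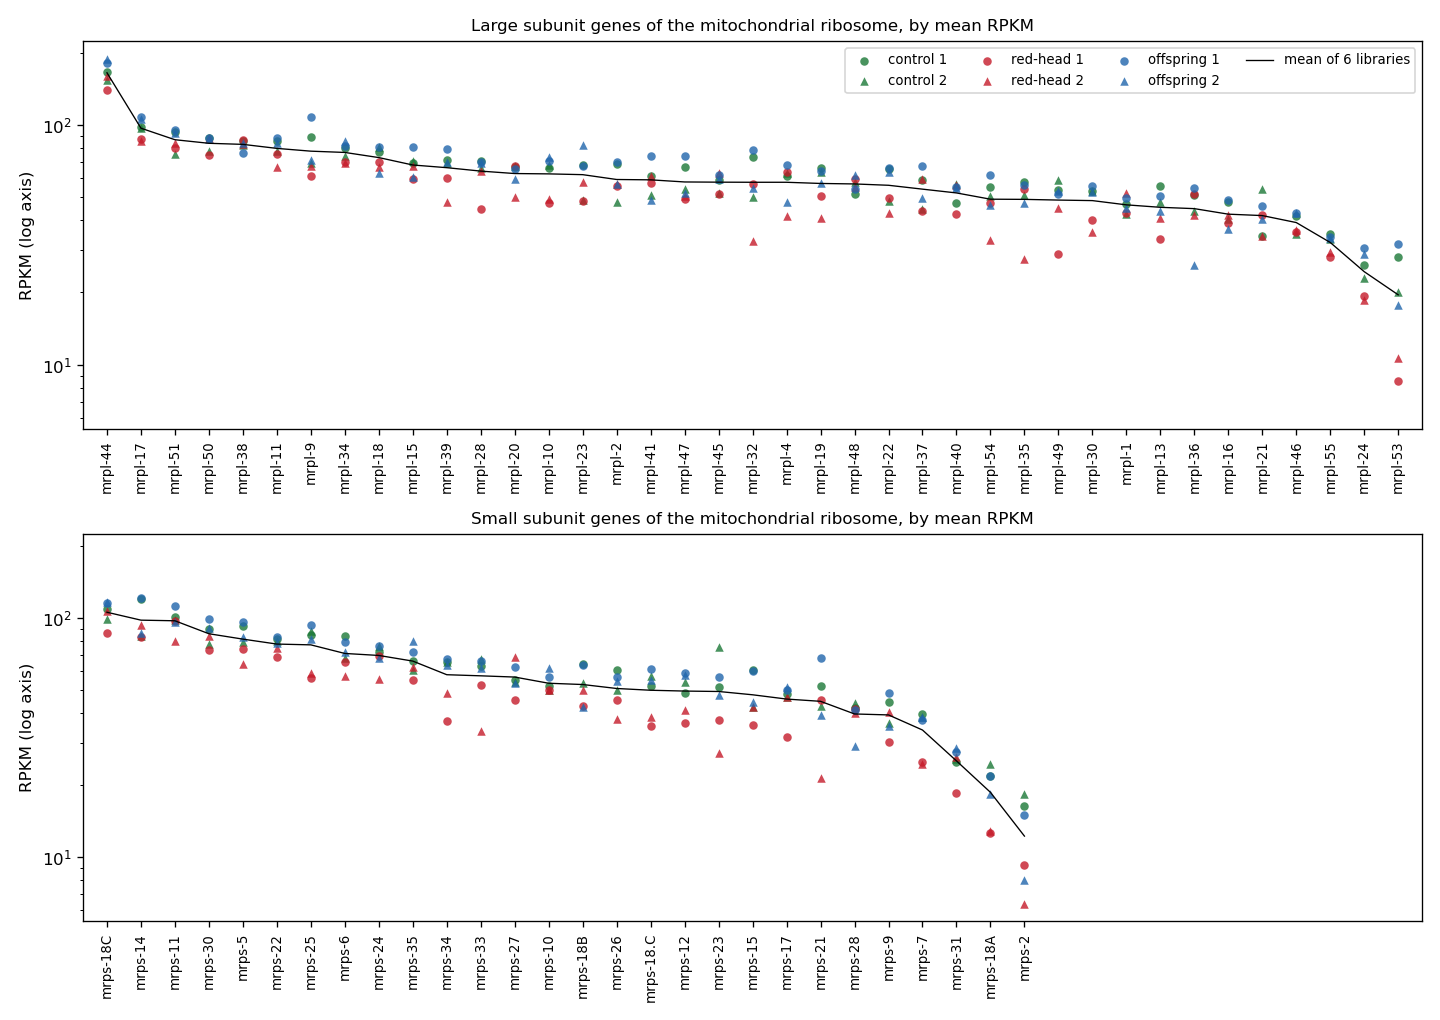
Level of each tested gene of the mitochondrial ribosome in RPKM on a log axis, large subunit above and small subunit below, ordered by the mean over 6 libraries (line). Circles are replicate 1 and triangles replicate 2 of control (green), “red-head” (red) and offspring (blue). Most genes sit near 57 RPKM, with mrpl-44 at 165 RPKM and mrps-2 at 12.3 RPKM at the ends.

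Neighbors in the order of levels could rarely be told apart. Of 66 adjacent pairs, 1 had library ranges that did not overlap. That pair was the highest: mrpl-44 (F02A9.4, chromosome III), a protein with an RNase III fold in mammals, had 166 and 154 RPKM in the control pair, 139 and 161 RPKM in the “red-head” pair and 182 and 189 RPKM in the offspring pair, all above the highest library of mrps-18C, at 116 RPKM. The annotation gives mrpl-44 exons in common with mccc-2, which has no row in the count files, so its reads may belong in part to that gene. Next came mrps-18C (C26E6.6), with a mean level of 105 RPKM (SD 11.1, n = 6). Then followed mrps-14 with 97.6 ± 17.5 RPKM and mrps-11 with 97.1 ± 10.2 RPKM (SD, n = 6), which in bacteria belong to the head and the platform of the small subunit. Beside them stood mrpl-17 with 97.0 ± 9.04 RPKM. In the control, “red-head” and offspring pairs, mrps-14 had 119.1 and 84.1, 82.9 and 93.2, and 120.3 and 86.2 RPKM. mrps-11 had 101 and 98.2, 96.6 and 79.8, and 111 and 95.7 RPKM, and mrpl-17 had 98 and 96.9, 87.2 and 86.1, and 108 and 106 RPKM. The ranges of these 3 genes and of mrps-18C overlapped. Behind them were mrpl-51 with 86.8 ± 8.07 RPKM, mrps-30 with 85.7 ± 9.34 RPKM, mrpl-50 with 83.9 ± 6.11 RPKM, mrpl-38 with 83 ± 3.61 RPKM and mrps-5 with 81.4 ± 11.7 RPKM (SD, n = 6). By pair, mrpl-51 had 93.4 and 75.4, 80.1 and 84.4, and 95.1 and 92.4 RPKM. mrps-30 had 90.1 and 77.8, 73.2 and 83.6, and 98.7 and 90.7 RPKM, and mrpl-50 had 88.2 and 77.6, 74.6 and 88, and 87.8 and 87 RPKM. In mrps-30 both offspring libraries lay just above the other 4, while the groups of mrpl-51 and mrpl-50 overlapped.

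At the low end, mrps-2 (T23B12.3, chromosome V), a protein of the small subunit with a bacterial counterpart, had 16.4 and 18.4 RPKM in the control pair, 9.31 and 6.40 RPKM in the “red-head” pair and 15 and 8.05 RPKM in the offspring pair. It had 16 reads in “red-head” 2 and 26 in offspring 2, against 87 to 113 in the other 4 libraries, so that its level in these libraries rests on few reads. The next were mrps-18A with 18.7 ± 4.98 RPKM, mrpl-53 with 19.5 ± 9.28 RPKM and mrpl-24 with 24.4 ± 4.91 RPKM (SD, n = 6). The library ranges of neighbors in this order overlapped, while mrpl-24, at 18.7 to 30.6 RPKM, lay just above all libraries of mrps-2. The genes mrpl-12, which carries the mobile stalk protein that recruits translation factors, and mrps-16 were all but unread. mrpl-12 had 1 read in control 2 and 0 in the other 5 libraries, and overlaps W09D10.5 on the opposite strand. mrps-16 had 1 and 1, 0 and 0, and 1 and 3 reads in control, “red-head” and offspring libraries and overlaps ilcr-2 on the same strand, which had 209 to 1093 reads. The kit used does not mark strand. A count near 0 in these files does not by itself show that the gene was silent. Reads that fall on 2 overlapping genes are set aside as ambiguous by HTSeq, and their number at these genes is not in the files. In the annotation used here mrps-16 has 609 exon bases and overlaps ilcr-2 over only part of them (gap of -175 bases). The counts were made on WS220, and the part of set-aside reads in the low counts was not tested. In all, 19 of the 69 genes overlap another annotated gene. mrps-18A, mrpl-53 and mrpl-24 are among these and overlap iglr-2, nhr-19 and C09D4.1. Reads set aside there would lower their RPKM, which divide by the full exon length. The size of this was not tested.

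In “red-head” germlines most MRP genes had lower fitted values than in control, and none passed the test. The median log2 fold change of the 67 genes was -0.22, a level lower by 14%, where the median over all 8117 tested genes was -0.01. A fitted value below 0 was found for 61 of the 67 genes (91%), against 51.3% of all tested genes. At an adjusted p of 0.05, 0 of 67 were called (edgeR's quasi-likelihood test, Benjamini-Hochberg adjustment over all tested genes), where 0% of all genes were, and DESeq2 also called 0, where it called 0.968% of the genes to which it gave an adjusted p. By DESeq2, 10 MRP genes were lower at an unadjusted p under 0.05, where 1.18% of all 23478 genes in its fit were, a larger set with more genes of few reads. The lowest adjusted p was 0.340. At an unadjusted p under 0.05, 15 genes were lower, or 22.4%, against 3.86% of all tested genes, and 0 were higher, against 3.79%. In 36 genes both “red-head” libraries lay below both control libraries, or 53.7%, where 19.6% of all genes did. In 0 genes did both lie above, where 18.4% of all genes did. The median standard error of a gene's log2 fold change was 0.19, about the size of the median difference, so that most of the genes taken singly could not be told from control.

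**Figure D2:**
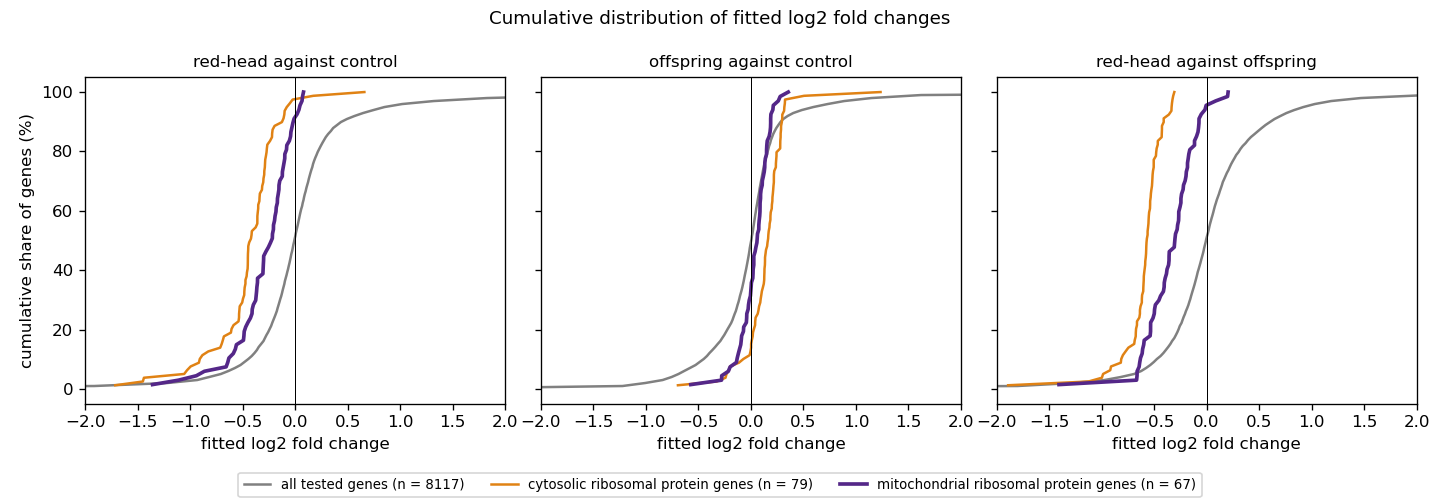
Cumulative share of genes (%) by fitted log2 fold change in the 3 comparisons, for all tested genes (grey), genes of cytosolic ribosomal proteins (orange) and genes of mitochondrial ribosomal proteins (purple). The purple curve is shifted to the left of grey where “red-head” germlines are compared, with medians of -0.22 and -0.30, and lies near it in offspring against control, with a median of 0.06.

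Summed over the 69 genes, the level was 4040 and 3691 CPM in the control pair, 3269 and 3430 CPM in the “red-head” pair and 4270 and 3854 CPM in the offspring pair. Both “red-head” libraries were the lowest of the 6. The small subunit summed to 1711 and 1573 CPM in the control pair, 1321 and 1417 CPM in the “red-head” pair and 1801 and 1614 CPM in the offspring pair. The large subunit summed to 2329 and 2118, 1948 and 2013, and 2469 and 2240 CPM in the same order. For both subunits the 2 “red-head” libraries were the lowest, while control and offspring libraries overlapped. Sums, medians and ratios by subunit rest on the symbol prefix, not on a known place in the worm ribosome. Taken gene by gene, the median log2 fold change against control was -0.30 in the small subunit, with 27 of 28 genes fitted below 0, and -0.18 in the large subunit, with 34 of 39. The ratio of large to small subunit CPM was 1.36 and 1.35 in control, 1.47 and 1.42 in “red-head” and 1.37 and 1.39 in offspring libraries. With 2 libraries per group an exact permutation test cannot reach p = 0.05, and none was run on these sums.

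**Figure D3:**
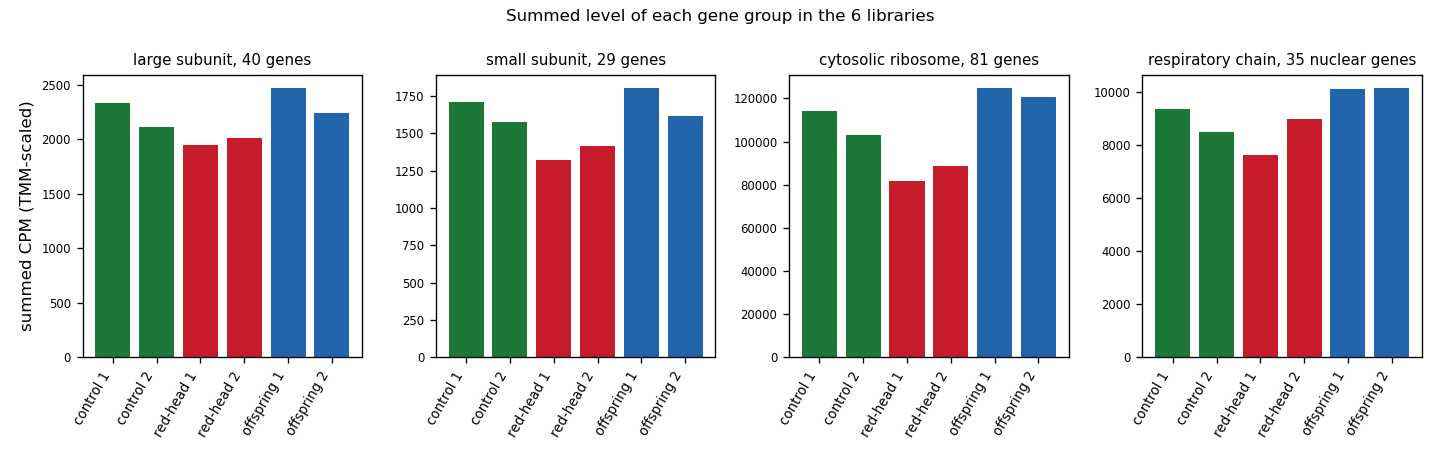
Summed level in CPM of the genes of each group in every library, for the large and small subunits of the mitochondrial ribosome, the cytosolic ribosome and the nuclear genes of the respiratory chain; bars start at 0. The “red-head” bars are the lowest in the first 3 panels, for instance 1321 and 1417 CPM in the small subunit.

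Of the 15 genes with an unadjusted p under 0.05 in “red-head” against control, 8 belong to the small subunit. Here mrps-25, a protein added in mitochondria, had 53.4 and 55.5 CPM in the control pair, 35.4 and 37.1 CPM in the “red-head” pair and 58.7 and 51.5 CPM in the offspring pair. Replicates lay close together, and the log2 fold change of -0.59 (SE 0.14) had the lowest p of the family (unadjusted p = 0.00398, adjusted p = 0.340, edgeR). mrps-34, likewise added in mitochondria, had 53 and 53.2 CPM in the control pair, 30.2 and 39.4 CPM in the “red-head” pair and 54.5 and 51.5 CPM in the offspring pair (log2 fold change -0.63, SE 0.17). mrps-7, whose bacterial counterpart helps to form the head of the small subunit, had 30.5 and 29.8 CPM, 19.3 and 18.9 CPM, and 29 and 29.6 CPM in the same order (log2 fold change -0.66, SE 0.20). In all 3 genes the “red-head” libraries were the lowest and the offspring libraries lay near those of control. mrps-26 had 88.3 and 72.6 CPM in the control pair against 66 and 55.3 CPM in the “red-head” pair, and 82.3 and 79.3 CPM in offspring libraries (log2 fold change -0.40, SE 0.15).

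The largest fitted differences came from genes with few reads. mrpl-53, a large subunit protein added in mitochondria, had 13.7 and 9.81 CPM in the control pair, 4.15 and 5.20 CPM in the “red-head” pair and 15.5 and 8.62 CPM in the offspring pair, from 14 to 107 reads per library. Its log2 fold change against control was -1.36 with a standard error of 0.44, and it overlaps nhr-19 on the opposite strand, which had 1 to 18 reads. mrps-2 had 15.2 and 17.1 CPM in the control pair, 8.64 and 5.94 CPM in the “red-head” pair and 13.9 and 7.47 CPM in the offspring pair (log2 fold change -1.11, SE 0.41). Here offspring 2 stood with the “red-head” libraries rather than with offspring 1. mrps-23 had 23.1 and 33.7 CPM in the control pair, 16.8 and 12.3 CPM in the “red-head” pair and 25.3 and 21.3 CPM in the offspring pair (log2 fold change -0.94, SE 0.29). Its 2 control libraries differed by more than control 1 and offspring 1 did.

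In the large subunit, mrpl-10 had the smallest p among these genes. Its bacterial counterpart forms the base of the stalk that recruits translation factors. It had 52.6 and 54.5 CPM in the control pair, 37.6 and 39 CPM in the “red-head” pair and 56.6 and 58.9 CPM in the offspring pair (log2 fold change -0.48, SE 0.13, unadjusted p = 0.0073, edgeR). mrpl-19, whose bacterial counterpart lies at the interface of the subunits, had 66.1 and 63.5 CPM, 50.4 and 40.9 CPM, and 64.3 and 57.5 CPM in the same order (log2 fold change -0.49, SE 0.15). Both genes had their lowest values in the “red-head” libraries, though replicates of mrpl-19 were further apart. mrpl-30 had 39.8 and 39.4 CPM in the control pair beside 30.1 and 26.7 CPM in the “red-head” pair, and mrpl-39 had 71.9 and 70.4 CPM against 60.9 and 48.3 CPM (log2 fold changes -0.47 and -0.37). Their offspring libraries had 41.6 and 39.1 CPM and 80.0 and 71 CPM. mrpl-49 had 35.1 and 38.6 CPM in the control pair against 18.9 and 29.3 CPM in the “red-head” pair (log2 fold change -0.64, SE 0.24). mrpl-13 had 40.5 and 34.5 CPM against 24.3 and 29.7 CPM (log2 fold change -0.49, SE 0.20). In the offspring pair, mrpl-49 had 33.6 and 34.8 CPM and mrpl-13 had 36.8 and 31.6 CPM. In both genes the “red-head” replicates themselves differed by more than 5 CPM. Of the 15 genes, 6 overlap another annotated gene: mrpl-53, mrpl-10, mrpl-19, mrpl-30, mrpl-39 and mrps-18A.

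**Figure D4:**
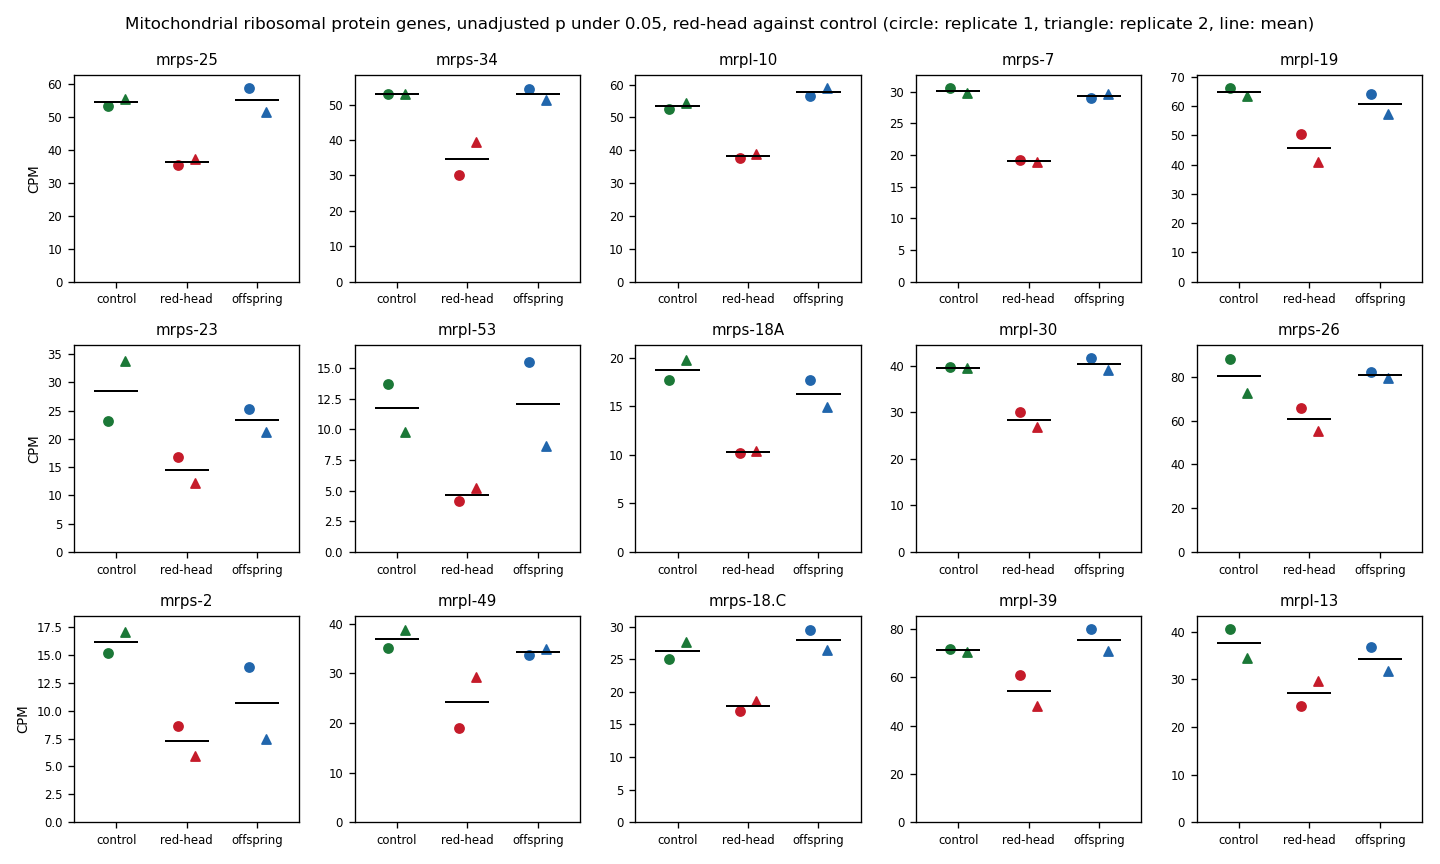
CPM in each library (circle, replicate 1; triangle, replicate 2) and group mean (line) of the 15 genes of mitochondrial ribosomal proteins with an unadjusted p under 0.05 in “red-head” against control; axes start at 0 and differ between panels. In each panel both red symbols lie below both green symbols, as for mrps-25 with 35.4 and 37.1 CPM against 53.4 and 55.5 CPM.

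Genes named after mrps-18 were the one family with several members. mrps-18A had 17.7 and 19.8 CPM in the control pair, 10.2 and 10.4 CPM in the “red-head” pair and 17.7 and 14.9 CPM in the offspring pair (log2 fold change against control -0.86, SE 0.28). mrps-18.C had 25 and 27.7 CPM, 17 and 18.6 CPM, and 29.5 and 26.4 CPM in the same order (log2 fold change -0.57, SE 0.22). mrps-18B had 53.9 and 45.1 CPM, 36 and 42 CPM, and 53.7 and 35.6 CPM. In these 3 genes both “red-head” libraries lay below both control libraries. mrps-18C had 148 and 135 CPM in the control pair, 118 and 146 CPM in the “red-head” pair and 156 and 158 CPM in the offspring pair, so that its groups overlapped (log2 fold change -0.11, SE 0.12). Its coding length of 1209 bases is well above the 417 to 714 bases of the other 3, and no role is given to it here. In mammals the protein named MRPS18A belongs to the large subunit, and the place of the worm proteins is not shown by these data. This holds for every gene here, since subunits were assigned by symbol prefix alone.

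A few genes showed no lower value. The highest fitted log2 fold changes in “red-head” against control were 0.08 for mrpl-48, 0.07 for mrpl-1 and 0.07 for mrpl-41, with standard errors of 0.17, 0.14 and 0.23. mrpl-1, whose bacterial counterpart forms the stalk beside the exit site of tRNA, had 71.3 and 64.5 CPM in the control pair, 65 and 78.8 CPM in the “red-head” pair and 75.6 and 68.4 CPM in the offspring pair. mrpl-48 had 33.1 and 37.5 CPM in the control pair against 38.5 and 35.7 CPM in the “red-head” pair, and mrpl-41 had 38.3 and 32 CPM against 35.6 and 38.3 CPM. In all 3 the groups overlapped. mrpl-38 ran from 101.5 to 115 CPM over the 6 libraries. In all, 16 of the 67 genes had a log2 fold change between -0.1 and 0.1.

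The direct contrast of “red-head” with offspring germlines gave the larger difference, and again no gene passed the test. The median log2 fold change of the 67 genes was -0.30, against -0.01 over all tested genes, and 64 genes (95.5%) were fitted below 0, against 50.9% of all genes. At an adjusted p of 0.05, 0 genes were called with edgeR, where 0.0123% of all genes were, and 0 with DESeq2, where 1.63% were. By DESeq2, 12 MRP genes were lower at an unadjusted p under 0.05, against 1.63% of all genes in its fit. The lowest adjusted p was 0.298. At an unadjusted p under 0.05, 18 genes (26.9%) were lower and 0 higher, against 6% and 4.16% of all tested genes. In 39 genes (58.2%) both “red-head” libraries lay below both offspring libraries, where 20.4% of all genes did, and in 0 did both lie above, where 17.5% of all genes did. Without offspring 1 the median was -0.22 and 4 genes had an unadjusted p under 0.05 (edgeR), and with scaling by library size only it was -0.19 and 10 genes did. This contrast shares its “red-head” libraries with the one above and adds no independent measure of them.

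By role, the 18 genes covered several sites of the ribosome. mrpl-10 had a log2 fold change of -0.59 (SE 0.13, unadjusted p = 0.00256, edgeR) from the values given above. mrps-12, whose bacterial counterpart sits at the decoding center, had 26.2 and 29.2 CPM in the control pair, 19.7 and 22.3 CPM in the “red-head” pair and 31.9 and 31.3 CPM in the offspring pair (log2 fold change -0.60, SE 0.20). mrps-5, whose bacterial counterpart lies at the entry of the mRNA channel, had 136.5 and 116 CPM in the control pair, 109 and 94.7 CPM in the “red-head” pair and 141 and 122 CPM in the offspring pair (log2 fold change -0.36, SE 0.13, unadjusted p = 0.028, edgeR). For mrps-5 against control the difference was -0.30 with an unadjusted p of 0.052. A pair of genes of the tunnel through which the new protein leaves the ribosome in bacteria were among the 18. mrpl-24 had 25.8 and 22.9 CPM in the control pair, 19.3 and 18.6 CPM in the “red-head” pair and 30.4 and 28.7 CPM in the offspring pair (log2 fold change -0.64, SE 0.21). mrpl-22 had 56.1 and 41 CPM, 42.1 and 36.4 CPM, and 56.5 and 54.3 CPM in the same order (log2 fold change -0.49, SE 0.19). The groups of mrpl-24 did not overlap, whereas “red-head” 1 lay above control 2 for mrpl-22.

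The 18 also held mrpl-44, mrpl-17 and mrps-35, whose values against control were -0.10, -0.17 and -0.12. mrpl-44 had 293 and 272 CPM in the control pair, 246 and 283 CPM in the “red-head” pair and 321 and 333 CPM in the offspring pair (log2 fold change -0.31, SE 0.11). mrpl-17 had 64.7 and 63.9 CPM, 57.6 and 56.8 CPM, and 71.1 and 69.9 CPM (log2 fold change -0.30, SE 0.12), and mrps-35 had 89.7 and 82.4 CPM, 74.5 and 84.7 CPM, and 97.8 and 109 CPM (log2 fold change -0.38, SE 0.12). In mrpl-44 and mrps-35 the “red-head” libraries overlapped with control but not with offspring. The 3 genes fitted above 0 were mrpl-36 (0.20, SE 0.40), mrps-28 (0.20, SE 0.24) and mrpl-38 (0.09, SE 0.10). mrpl-36, with an exon length of 309 bases the shortest of the family, had 15.7 and 13.5 CPM in the control pair, 15.9 and 13 CPM in the “red-head” pair and 16.8 and 8.05 CPM in the offspring pair. mrps-28 had 27 and 28.2 CPM, 26.6 and 25.6 CPM, and 26.5 and 18.7 CPM. Without offspring 2 the values were -0.21 for mrpl-36 and -0.03 for mrps-28.

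Offspring germlines lay close to control. The median log2 fold change of the 67 genes was 0.06, against 0.00 over all tested genes, and 22 genes (32.8%) were fitted below 0, against 49.4% of all genes. At an adjusted p of 0.05, 0 genes were called with edgeR, where 0.123% of all genes were, and 0 with DESeq2, where 0.276% were. By DESeq2, 0 MRP genes were lower at an unadjusted p under 0.05, against 0.136% of all genes in its fit. The lowest adjusted p was 0.999. At an unadjusted p under 0.05, 0 genes were lower and 0 higher, against 0.48% and 0.813% of all tested genes. In 14 genes (20.9%) both offspring libraries lay above and in 6 (9.0%) below both control libraries, where 16.4% and 16.6% of all genes did. The values at the ends were -0.57 (SE 0.40) for mrps-2 and 0.36 (SE 0.22) for mrpl-23, which had 38.9 and 27.8 CPM in control and 38.5 and 47.4 CPM in offspring libraries. mrps-35, at 0.26 (SE 0.12), and mrpl-24, at 0.28 (SE 0.21), had both offspring libraries above both control libraries. The sign of the median was not stable: it was -0.05 without offspring 1, -0.00 without control 2 and -0.01 with scaling by library size only.

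Over the 3 groups together, 28 of the 67 genes (41.8%) had both “red-head” libraries below the other 4, where 11.5% of all tested genes did, and 0 had both above, where 10.2% did. In 6 genes (8.96%) the “red-head” libraries lay below and the offspring libraries above both control libraries, where 2.75% of all tested genes had this order. The 28 included 15 genes of the large and 13 of the small subunit, among them mrps-5, mrps-7, mrps-12, mrps-17, mrps-22, mrpl-9, mrpl-11, mrpl-28 and mrpl-47. Library by library, the median deviation of the 67 genes from their mean log2 level was 0.12 and 0.02 in control, -0.18 and -0.14 in “red-head” and 0.19 and 0.03 in offspring libraries. Replicates of control differed by a median of 0.11 and those of offspring by 0.14 on the log2 scale, in each case with replicate 1 higher. Between single libraries, “red-head” 1 and control 2 differed by a median of -0.15, and “red-head” 2 and control 2 by -0.17, which is not far beyond the difference between the 2 control libraries. Without control 1, the median log2 fold change in “red-head” against control was -0.17 and 4 genes had an unadjusted p under 0.05 (edgeR). Without control 2, the median was -0.32 and 8 genes did. Within a tag, “red-head” 2 lay below offspring 2 by a median of -0.23, with 51 of 67 genes lower. Offspring 1 lay above control 1 by 0.08.

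Gene length moved with these differences. The 67 genes are short, with a median exon length of 771 bases against 1563 bases for all tested coding genes. In “red-head” against control, the shortest of 10 equal bins of coding genes by exon length (median 494 bases) had a median log2 fold change of -0.24 and the longest bin (median 4771 bases) one of 0.09. In “red-head” against offspring the same bins had medians of -0.26 and 0.08. Among 3117 coding genes of 498 to 1466 bases, the range that holds the middle 80% of MRP genes, the median was -0.06 against control, and 58.2% were fitted below 0. When the trend of each library with length was taken out in the fit, an alternative chosen after seeing the data, the median of the 67 genes was -0.14 against control, beside -0.02 for all genes, with 53 genes below 0 and 9 lower at an unadjusted p under 0.05 (edgeR), where 54% and 2.14% of all genes were. Against offspring it was -0.28 beside -0.06 for all genes, with 60 genes below 0 and 16 lower at an unadjusted p under 0.05, against 58.4% and 4.74% of all genes. In both contrasts 0 MRP genes were called, where 0.296% of all genes were against control and 0.0246% against offspring. The part of library preparation in the trend with length was not tested.

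**Figure D5:**
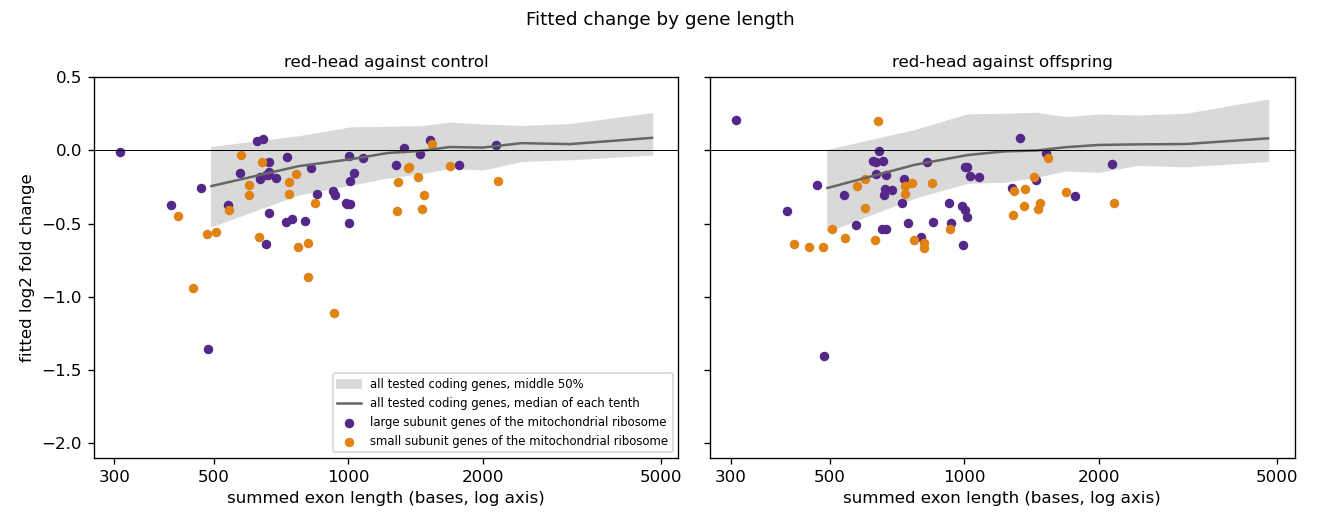
Fitted log2 fold change against summed exon length (bases, log axis) in “red-head” against control (left) and against offspring (right), for large (purple) and small (orange) subunit genes of the mitochondrial ribosome. The grey line joins the medians of 10 equal bins of all tested coding genes by length and the band holds their middle 50%; the line runs from -0.24 at 494 bases to 0.09 at 4771 bases on the left.

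Other genes of mitochondrial protein synthesis and of the ribosome were compared from lists. None of them had a gene called in “red-head” against control (edgeR). The 79 tested genes of cytosolic ribosomal proteins stood at a median of -0.42 on the log2 scale, with 77 fitted below 0 and 38 at an unadjusted p under 0.05, and a median exon length of 513 bases. They summed to 114127 and 102945 CPM in the control pair, 81528 and 88886 CPM in the “red-head” pair and 124705 and 120819 CPM in the offspring pair, with “red-head” lowest. For each CPM of MRP genes there were 28.2 and 27.9 CPM of cytosolic ribosomal protein genes in the control pair, 24.9 and 25.9 in the “red-head” pair and 29.2 and 31.4 in the offspring pair. The 35 nuclear genes of the respiratory chain, which works together with the products of the mitochondrial ribosome, had a median of -0.16, with 26 below 0 and 3 at an unadjusted p under 0.05. Their sums were 9349 and 8482 CPM in the control pair and 7649 and 8980 CPM in the “red-head” pair, so that these groups overlapped. The offspring pair had 10136 and 10150 CPM. In “red-head” against offspring, cytosolic ribosomal protein genes had a median of -0.57, with 75.9% lower at an unadjusted p under 0.05 (edgeR). Respiratory chain genes had -0.27 and 31.4%, beside -0.30 and 26.9% for MRP genes.

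The remaining mitochondrial lists had medians near that of all genes. Exon lengths ran from 1096 to 3370 bases in the translation factor list and from 1376 to 3593 bases in the synthetase list. The median of MRP genes was 771 bases, and the part of length in this contrast was not tested. The 6 genes found of the translation factor list, in which dap-3 was counted, had a median of -0.03. Among them was tufm-1, the elongation factor that brings tRNA to the ribosome. It had 399.5 and 375 CPM in the control pair beside 312 and 452 CPM in the “red-head” pair. mma-1, the next highest of the list, had 306 and 275 CPM in the control pair beside 262 and 306 CPM in the “red-head” pair. In both genes the groups overlapped. dap-3, which encodes a further protein of the small subunit under another name and was therefore no member by the rule, had 106 and 95.1 CPM in the control pair, 74.7 and 94 CPM in the “red-head” pair and 98.9 and 106 CPM in the offspring pair (log2 fold change -0.27). The 12 genes of mitochondrial aminoacyl-tRNA synthetases had a median of -0.04 and the 11 tested genes of the mitochondrial stress response one of -0.06, with 0 at an unadjusted p under 0.05 in both. Of the latter, the chaperone gene hsp-6, a usual reporter of that response, had 1019 and 1139 CPM in the control pair, 834 and 1181 CPM in the “red-head” pair and 975 and 1259 CPM in the offspring pair, with overlapping groups. The list for maintenance and transcription of mitochondrial DNA had 4 tested genes, 2 fitted higher and 2 lower against control, with a median of -0.04. The highest of the 4 was polg-1, the polymerase, with 47.9 and 62.6 CPM in the control pair and 69.1 and 92.1 CPM in the “red-head” pair. Its log2 fold change was 0.54 (unadjusted p = 0.024, edgeR), and the offspring pair had 54 and 55.8 CPM. The 12 protein-coding and 2 rRNA genes of mitochondrial DNA are listed at 0 in every library, so that the mRNAs and rRNAs on which this ribosome works could not be set beside its proteins.

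In the genome, the MRP genes lie on all autosomes and not on X. Of the 69 genes, 22 lie on chromosome III, or 31.9%, where 19.98% of tested coding genes lie, 15 on I, 12 on II, 10 on IV and 10 on V. The X chromosome holds 0 of them and 9.85% of tested coding genes. Fitted medians in “red-head” against control were close on all 5 autosomes, between -0.28 on I and -0.21 on III. In the Ensembl 115 annotation of WBcel235, 32 of the 67 tested genes (47.8%) had a protein-coding neighbor within 200 bases on the same strand, the spacing of genes in worm operons, where 28.6% of tested coding genes did. Values are given here for some of these pairs, and differences between neighbors were not tested. mrps-2 lies 105 bases before mrpl-4, and their log2 fold changes in “red-head” against control were -1.11 and -0.21, with standard errors of 0.41 and 0.24. mrps-5 lies 103 bases behind sel-1, with values of -0.30 and -0.10. dap-3 and mrps-22, both of the small subunit, are 105 bases apart and had values of -0.27 and -0.18.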

How the data were processed

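The authors aligned reads with TopHat2 and deposited HTSeq counts per gene (WS220 annotation), whole numbers without normalization. Rows naming no gene were left out: 10.7% to 15.2% of reads were on no feature and 1.59% to 2.15% ambiguous. The deposited table of the authors' own DESeq2 comparisons (fold changes and adjusted p) was not used. edgeR 4.0.16 in R 4.3.3 dropped low genes (filterByExpr), applied TMM factors and ran glmQLFit and glmQLFTest in one fit of 6 libraries with 3 contrasts and Benjamini-Hochberg adjustment. A standard error is the fold change over the root of F. RPKM are TMM-scaled CPM per kilobase of summed exons (Ensembl 115, WBcel235); since the counts were made on WS220, no coordinates are given. Single libraries were compared as log2(CPM + 0.5). The steps were tested on simulated data. Depth sets the precision: “red-head” 2 had the fewest reads, 2721055. Genes, lists and the naming rule were chosen with earlier results of these data known. Named were, per subunit, the 4 genes with the highest and the 2 with the lowest RPKM, mrps-5, the mrps-18 family, and per comparison the 3 highest and 3 lowest fold changes and all with an unadjusted p under 0.05. mrpl-24 and mrps-18A as low levels, and dap-3, polg-1, hsp-6 and genome neighbors, were named after their values were seen. Alternatives: DESeq2 1.42.0, RLE or library size scaling, unfiltered genes, a minimum of 10 counts per library, only the 4 libraries compared, a replicate block, other gene lengths, genes without overlaps, pairs within a tag, each library left out, and, added after seeing the data, removal of the length trend.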

Additional observations from a re-analysis of the deposited data

Results flagged for a closer look

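In 6 genes both “red-head” libraries lay below and both offspring libraries above both control libraries, an opposite direction in the 2 generations. They are 8.96% of the 67 MRP genes, where 2.75% of all tested genes showed the same pattern. The difference between “red-head” and offspring was fitted directly (edgeR) and none of the 6 passed an adjusted p of 0.05. The log2 fold changes of “red-head” against offspring were -0.59 for mrpl-10, -0.30 for mrpl-17, -0.64 for mrpl-24, -0.27 for mrpl-34, -0.60 for mrps-12 and -0.39 for mrps-17. Each pattern rests on 2 libraries a group.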

How the results depend on the processing

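No MRP gene was called in any of 14 alternative settings of each comparison (edgeR or DESeq2). Of all genes, 0% to 1.51% were called over these settings in “red-head” against control, 0.0434% to 0.29% in offspring against control and 0% to 1.63% in “red-head” against offspring. For MRP genes the lowest adjusted p over settings ran from 0.109 to 0.999 in “red-head” against control and from 0.082 to 0.627 against offspring. The median log2 fold change of the 67 genes ran from -0.32 (without control 2) to -0.17 (without control 1) in “red-head” against control, from -0.046 (without offspring 1) to 0.14 (without offspring 2) in offspring against control, and from -0.37 to -0.22 in “red-head” against offspring as single libraries were left out. Scaling by library size only moved the last median to -0.19 and the log2 ratio of summed CPM to -0.18, and it shifted the median of all genes by 0.11. Near 0, signs turned. Over left-out libraries the “red-head” against control value ran from -0.053 to 0.20 for mrpl-41, from -0.059 to 0.22 for mrpl-1 and from -0.014 to 0.17 for mrpl-48, offspring against control from -0.53 to 0.0087 for mrps-23, and “red-head” against offspring from -0.026 to 0.48 for mrps-28 and from -0.21 to 0.85 for mrpl-36. With the length trend removed mrpl-38 was at -0.016 in the last comparison. The cause was not tested. With a replicate block the medians were -0.24, 0.06 and -0.30 and 0 MRP genes were called. Deviations of same-numbered libraries correlated at -0.09 (control and “red-head”), 0.39 (control and offspring) and 0.03 (“red-head” and offspring). A link by number was thus seen for control and offspring only. Control 1 and offspring 1 share a tag, but so do “red-head” 2 and offspring 2. The part of the tag was not tested. Genes under about 20 reads in “red-head” 2, such as mrpl-53 and mrps-2, are limited by depth.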
